A study of Homo sapiens with 20 samples.

Results

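The genes described here are a set of 10 from the G1 control genes that the RNA-seq series measured. The set holds 5 inhibitors of cyclin-dependent kinases (CDKs), 3 G1 cyclins and the 2 kinases that D-type cyclins activate. Other genes of G1 control were measured too, and some are described further below. They are the genes with the symbols CDKN1A, CDKN1B, CDKN1C, CDKN2C, CDKN2D, CCND2, CCND3, CCNE1, CDK4 and CDK6, which makes 10 of the 46425 gene symbols in the deposited tables, and all 10 were found. Each gene's level is the sum over its annotated transcripts, and all 10 genes passed the filter on low counts.

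HUDEP-2 is a human erythroid progenitor line derived from umbilical cord blood. It was grown in expansion medium and then moved to differentiation medium to form maturing erythroblasts, and RNA was taken on days 0, 1, 2, 3, 4, 5, 6, 7, 8 and 12, with 2 libraries per day and 20 in all. The question asked of these genes is when, on the way from proliferating progenitor to maturing erythroblast, each brake and each driver of G1 was raised or lowered. The staging used in the study places day 0 at the proerythroblast (Pro-E), days 4 to 6 at the early and late basophilic (EB/LB), day 8 at the polychromatic (Poly) and day 12 at the orthochromatic and reticulocyte stage (Ortho).

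All groups were wild type HUDEP-2 cells, and they differed in the day and in the medium that went with it. The serum-free expansion medium of day 0 held erythropoietin, stem cell factor, doxycycline and, per the study's methods, dexamethasone. The differentiation medium held human serum, transferrin, insulin and heparin with erythropoietin, stem cell factor and doxycycline, of which stem cell factor was left out from day 6 and doxycycline from day 8. The time in culture and these changes of medium cannot be told apart. The line was immortalized with papillomavirus E6 and E7 genes that doxycycline switches on, and E6 and E7 are known to act on p53 and on the retinoblastoma protein (RB). Day 12 is the only group taken well after doxycycline was left out.

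One library of each day came from 3 tables that each hold some of the days (library A), and the other from a single table that spans all days (library B). The letters name the tables and not replicate numbers. The libraries held 52131713 to 70358198 counts, so that a count of 3, taken as the detection floor, was worth 0.0426 to 0.0575 CPM, the share of a library's counts scaled to a fixed total. The study calls the 2 libraries of days 0 and 8 biological replicates, and for the other days the sources used here do not say whether the cultures were separate, so p-values measure the spread between these libraries, and floors cover counting error only. Library A of days 7 and 8 stood apart, with 18.5% and 17.5% of its counts in 31 ribosomal RNA genes, against 1.03% to 4.08% in the other 18 libraries. For single genes, log2 fold changes on day 8 are also given without it where that ended a call or moved the value by over 1.5 times.

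The label of the cells matched their markers. All 12 erythroid markers were detected in these cells, with HBB, the adult beta-globin chain, as the most abundant, and their summed level rose from 33082 and 33358 TPM, a length-corrected share of all transcripts, on day 0 to 593849 and 627493 TPM on day 12. Of the defining markers of other lineages, PF4, PPBP, ELANE, CD3E and NKG7 were at 0 in all libraries. The exception was ITGA2B, a megakaryocytic and progenitor integrin and the most abundant of 5 megakaryocytic markers, whose list summed to 69.0 TPM in library A and 10.7 TPM in library B on day 0 and to 0.316 and 0.231 TPM on day 8. The 6 myeloid and macrophage markers summed to at most 1.52 TPM, led by LYZ, and the 4 lymphoid markers to at most 0.668 TPM, all of it CD79A.

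As background, a cell commits to division in G1. D-type cyclins bind CDK4 or CDK6 and, with cyclin E bound to CDK2, phosphorylate RB and release E2F factors, which switch on the genes of DNA replication. The INK4 inhibitors (p18 from CDKN2C and p19 from CDKN2D) bind CDK4 and CDK6 and keep them from their cyclins, whereas the CIP/KIP inhibitors (p21 from CDKN1A, p27 from CDKN1B and p57 from CDKN1C) bind cyclin-CDK complexes. Terminal erythroid maturation is known to couple a last series of fast divisions to hemoglobin accumulation, and it ends with cell cycle exit before the nucleus is expelled. In bulk RNA, fewer cells of a type and less RNA per cell cannot be told apart.

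Levels are given below in TPM and differences as log2 fold changes with their standard error (SE) on the scale of trimmed mean of M-values (TMM), which sets the bulk of genes level between libraries. On day 12 these scales diverge, because globin and other erythroid transcripts fill most of the TPM. The comparisons share libraries and one estimate of the spread, and a gene is called changed at a Benjamini-Hochberg adjusted p under 0.05 in edgeR's quasi-likelihood test over 16784 genes.

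Of the 10 genes, 9 changed over the 10 days, where 66% of all genes tested did. CDK6 was the exception (adjusted p = 0.593), and it was called in a fit with the library letter (A or B) as a block (adjusted p = 0.014). CDKN1C lost its call with limma on log2(TPM + 1) (adjusted p = 0.267) and log2(TPM + 0.1) (adjusted p = 0.192) and without the library A samples of days 7 and 8 (adjusted p = 0.729). No member was called on day 1 against day 0, where 0.393% of all genes were (0.262% higher and 0.131% lower). In that comparison 0 of the 10 had an unadjusted p under 0.05, DESeq2 also called 0, and the fit with the block called 1, CCND3 (log2 fold change 0.76, adjusted p = 0.041).

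The balance of the set turned around over the time course. On day 0, CDK4 was the most abundant of the 10 genes, with 359 TPM ± 3.75 (SD, n = 2), followed by CCND3 with 141 TPM ± 1.44 (SD, n = 2), and CDKN1A was the ninth, with 3.63 TPM ± 2.48 (SD, n = 2). On day 12, CDKN1A was the first, with 464 TPM ± 28.2 (SD, n = 2), and CDK4 the fifth, with 31.8 TPM ± 0.243 (SD, n = 2). The ranges of the 2 libraries overlapped between some neighbours in the order. On day 0 this held for CCND2 and CDK6, for CDK6 and CDKN2D, and for CDKN2D and CDKN1A, and on day 12 for CDKN1B and CCND3, for CCNE1 and CCND2, and for CCND2 and CDK6.

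The CIP/KIP inhibitors include the gene of the set that rose most from day 8 to day 12. CDKN1A encodes p21, the inhibitor best known as a direct target of p53. Its level was 5.38 TPM in library A and 1.87 TPM in library B on day 0, and 0.581, 1.34 and 2.27 TPM (lowest, median and highest of 6) on days 4 to 6. On day 8 it was 11.1 TPM in library A and 0.658 TPM in library B, and on day 12 it was 484 and 444 TPM. Both day 12 libraries stood far above all others, which did not exceed 11.1 TPM, while the day 8 libraries lay on either side of most earlier ones.

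CDKN1A thus rose from day 8 to day 12, with a log2 fold change of 7.45 (SE 1.40, adjusted p = 0.00045, edgeR). Within library A alone the log2 fold change was 6.46 and within library B it was 10.50, and it lay between 6.53 and 10.46 when single libraries were left out. Library B of day 8 rested on 45 counts and library A on 734, against 36158 and 36736 on day 12. For day 8 against days 4 to 6, by contrast, the log2 fold change of CDKN1A was 2.44 (adjusted p = 0.055), passed the test in 5 of 12 other settings (adjusted p down to 0.0098, with the block) and in 3 of 20 fits that left out 1 library (down to 0.012), and turned to -0.59 without library A of day 8, and for day 8 against day 0 it was 1.16 (adjusted p = 0.443) and turned to -1.86. The early dip in CDKN1A from day 0 to days 4 to 6 did not pass the test (log2 fold change -1.28, SE 0.90, adjusted p = 0.390). On the GENCODE annotation CDKN1A shares 146 exon bases with the antisense lncRNA DINOL.

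CDKN1B encodes p27, an inhibitor that accumulates in many cells as they leave the cycle. Its level was 48.7 and 43.9 TPM on day 0, and 43.5, 65.1 and 79.3 TPM (lowest, median and highest of 6) on days 4 to 6. It was 101 and 82.6 TPM on day 8, and 121 and 78.0 TPM on day 12. The day 8 libraries lay above all day 0 and day 4 to 6 libraries, whereas the day 8 and day 12 libraries overlapped in TPM.

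On the TMM scale CDKN1B rose at both late steps, from 164 and 110 TMM-normalized CPM on day 8 to 422 and 359 CPM on day 12, where the libraries did not overlap. The log2 fold change was 1.01 for day 8 against days 4 to 6 (SE 0.23, adjusted p = 0.0089) and 1.51 for day 12 against day 8 (SE 0.31, adjusted p = 0.00080), with 1.37 in library A and 1.70 in library B for the latter. As a share of TPM the first of these steps was 0.56 (adjusted p = 0.070, limma on log2(TPM + 1)) and the late step was 0.09 (adjusted p = 0.828, limma on log2(TPM + 1)), so that both calls were made on the TMM scale and not on the TPM scale. Without library A of day 8 the step to day 8 was 0.69 (adjusted p = 0.255) on the TMM scale, which is not a call.

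CDKN1C, which encodes p57, was by mean TPM the least abundant gene of the set on each day but day 7, when it was among the 2 least abundant. Its range overlapped that of CDKN1A on days 5 to 8. It stood at 0.252 and 0.592 TPM on day 0, and it ranged from 0.250 to 0.979 TPM with a median of 0.515 over the 6 libraries of days 4 to 6. On day 8 it was 4.60 TPM in library A and 0.834 TPM in library B, and on day 12 its libraries held 0.209 and 0.186 TPM. The high values belonged to library A of days 7 and 8 alone, and library B of day 8 overlapped the earlier days.

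The called rise of CDKN1C on day 8 against days 4 to 6 (log2 fold change 2.86, SE 0.73, adjusted p = 0.015) was 3.07 in library A and 1.74 in library B. Without library A of day 8 it was 0.98 (adjusted p = 0.656), and the rise against day 0 went from 3.40 (adjusted p = 0.025) to 1.52 (adjusted p = 0.355). The latter call was also lost without either day 0 library (2.97 and 4.02, adjusted p = 0.159 and 0.075), with limma on log2(TPM + 1) (1.18, adjusted p = 0.098) and with only the libraries of the days compared (3.42, adjusted p = 0.064). The part that the ribosomal RNA share of this library has in the result was not tested.

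The INK4 inhibitors of the set took another course, with their highest levels on days 7 and 8 in TPM. On the TMM scale CDKN2D was highest on day 12, with 36.6 and 39.2 CPM against 21.9 and 12.8 CPM on day 8. CDKN2C encodes p18, an inhibitor of CDK4 and CDK6. Its level was 77.3 and 65.8 TPM on day 0, ranged from 79.1 to 133 TPM with a median of 104 over the 6 libraries of days 4 to 6, and was 141 and 122 TPM on day 8. On day 12 it was 48.3 and 41.6 TPM, below every other day in both libraries as a share of TPM. On the TMM scale day 12, at 78.4 and 91.0 CPM, lay above day 0, at 61.6 and 49.7 CPM, so its position against the start turned with the scale. In TPM the day 0 libraries lay below all libraries of days 4 to 6, and the day 8 libraries overlapped the upper end of that range.

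CDKN2C was called higher on day 8 than on day 0 (log2 fold change 1.46, SE 0.29, adjusted p = 0.0016). The first step, to days 4 to 6, missed the threshold (0.74, SE 0.24, adjusted p = 0.053), and the step from there to day 8 passed it (0.73, SE 0.22, adjusted p = 0.033). From day 8 to day 12 CDKN2C fell (-0.86, SE 0.29, adjusted p = 0.020), a call that was lost without library A of day 8 (-0.64, adjusted p = 0.133), without library A of day 12 (-0.78, adjusted p = 0.092) or with upper-quartile scaling (-0.68, adjusted p = 0.074). The call of day 8 against days 4 to 6 was also lost when any one of the library B samples of days 4, 5 or 6 was left out (adjusted p = 0.075, 0.075 and 0.072), without library A of day 8 (0.49, adjusted p = 0.442) and with limma on log2(TPM + 1) (0.33, adjusted p = 0.215).

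CDKN2D encodes p19, the other INK4 inhibitor of the set. It stood at 7.45 and 4.88 TPM on day 0, ranged from 5.51 to 13.0 TPM with a median of 8.40 over the 6 libraries of days 4 to 6, and reached 25.3 and 18.0 TPM on day 8. On day 12 it was 19.7 and 16.9 TPM, and these libraries overlapped those of day 8. The day 8 libraries lay above all libraries of days 0 and 4 to 6.

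The rise of CDKN2D was much the same in both libraries. For day 8 against days 4 to 6 the log2 fold change was 1.83 (SE 0.41, adjusted p = 0.0074), with 1.80 in library A and 1.88 in library B, and for day 8 against day 0 it was 2.50 (SE 0.57, adjusted p = 0.0042). Without the library A samples of days 7 and 8 the former was 1.39 (adjusted p = 0.200) and the latter 2.08 (adjusted p = 0.042). The day 12 step was 1.13 on the TMM scale (adjusted p = 0.092), where the fit with the block (1.24, adjusted p = 0.0011) and DESeq2 (1.31, adjusted p = 0.031) called it, and -0.22 on the log2(TPM + 1) scale (adjusted p = 0.695), so its direction depended on the scaling.

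The estimated shares of the 2 listed transcripts of CDKN2C differed between day 8 and day 12. The tables list 2 transcripts of this gene on chromosome 1 (hg38, plus strand) that end at the same base, 50974634. The longer, NM_001262, has 2087 bases and starts at 50968695, and the shorter, NM_078626, has 995 bases and starts within the gene, at 50970245. The 250 bases before the start of each are shown because the start is what sets the transcripts apart. They are taken from RefSeq (GRCh38.p14), with matches to the GC box (GGGCGG) and the CCAAT box (CCAAT) in capitals.
CDKN2C upstream start, chr1:50968456-50968705, plus strand: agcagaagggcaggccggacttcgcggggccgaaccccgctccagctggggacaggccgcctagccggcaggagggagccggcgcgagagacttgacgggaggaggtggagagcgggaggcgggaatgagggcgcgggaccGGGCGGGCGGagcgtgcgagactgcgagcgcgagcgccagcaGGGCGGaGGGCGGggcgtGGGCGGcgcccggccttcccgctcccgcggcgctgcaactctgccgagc
CDKN2C downstream start, chr1:50969995-50970244, plus strand: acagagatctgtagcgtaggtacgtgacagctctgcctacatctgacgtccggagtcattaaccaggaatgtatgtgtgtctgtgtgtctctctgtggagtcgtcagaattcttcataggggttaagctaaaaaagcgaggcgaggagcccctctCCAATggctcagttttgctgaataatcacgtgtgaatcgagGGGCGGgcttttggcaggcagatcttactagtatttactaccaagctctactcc

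The windows differ in base composition, with 77.2% G and C before the upstream start and 48.8% before the downstream start. The upstream window held 5 matches of GGGCGG, of which the first and the second overlap, and none of CCAAT, and the downstream window held 1 match of each. Both strands were searched, also for the E2F motifs TTTCGCGC and TTTGGCGC, the CHR motif TTTGAA, the GATA motif AGATAA and the TATA box TATAAA, and none of these letters was in either window. Among all 35114 RefSeq windows, which run from 250 bases before to 50 after a start, 45.0% hold GGGCGG, 34.6% CCAAT, 0.515% TTTCGCGC, 0.652% TTTGGCGC, 15.2% TTTGAA, 10.3% AGATAA and 11.5% TATAAA. RefSeq places the upstream start at 50968706, and a match is a description of the letters and not a site. RefSeq also lists a start further upstream, at 50960745, with 45.6% G and C before it and no match of the motifs searched.

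Through day 8 the upstream transcript made up most of CDKN2C. NM_001262 stood at 113 TPM in library A and 104 TPM in library B on day 8 and at 5.59 and 5.74 TPM on day 12, while NM_078626 went from 27.5 and 18.3 TPM to 42.7 and 35.9 TPM. The share of NM_078626 in the gene's TPM was between 6.70% and 19.6% in every library from day 0 to day 8 and was 88.4% and 86.2% on day 12. The libraries of the 2 days overlapped for neither transcript, with NM_001262 lower on day 12 and NM_078626 higher.

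In an edgeR fit over 75285 transcripts, added after these values were seen, NM_001262 fell from day 8 to day 12 (log2 fold change -3.16, SE 0.34, adjusted p = 4.3e-05), where 14.2% of transcripts were called. NM_078626 had a log2 fold change of 1.84 (SE 0.58, adjusted p = 0.053), which missed the threshold. The difference between the 2 folds was not tested. By counts instead of TPM, the share of NM_078626 went from 9.08% on day 8 to 76.7% on day 12 (means of 2 libraries). StringTie divides reads between overlapping transcripts by estimation, and GENCODE places an antisense lncRNA, ENSG00000290102, over 617 exon bases of the annotated gene.

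**Figure D1:**
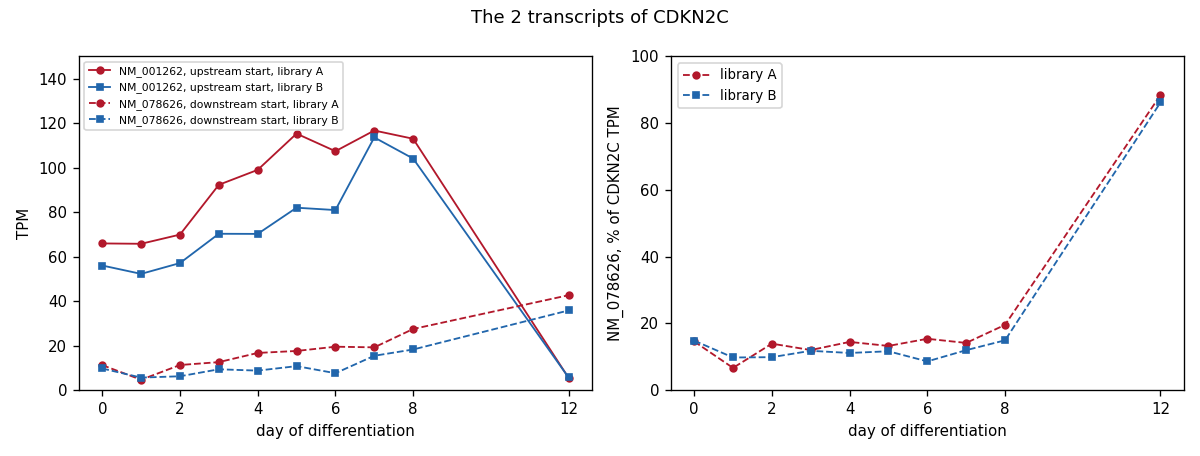
Left, TPM of the CDKN2C transcripts against the day, with solid lines for NM_001262, dashed lines for NM_078626, red for library A and blue for library B. Right, NM_078626 as a percentage of the gene's TPM, which lies under 20% in both libraries up to day 8 and at 88.4% and 86.2% on day 12.

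The listed transcripts of CDK6 also had other shares on day 12 than on day 8, with no transcript called. NM_001145306 held 87.7% and 81.2% of the gene's TPM on day 8 and 9.30% and 13.5% on day 12, with 29 and 28 counts there, while XM_006715835 was listed at 0 in both libraries on day 8 and held 90.7% and 86.5% on day 12, with 282 and 183 counts. Neither was called in the transcript fit (adjusted p = 0.126 and 0.278), and XM_006715835 also held 100% of the gene in library A of day 1 and none in library B. These transcripts have 11663 and 11834 bases and cover nearly the same stretch of the genome.

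The other genes of the set are given more briefly. CDKN1B, CCND2 and CDK4 have 1 annotated transcript each in the tables. CCND3 came mostly from NM_001760, with 55.4% ± 15.6 (SD, n = 2) of the gene's TPM on day 0, 79.9% ± 1.47 on day 8 and 71.5% ± 4.50 on day 12. NM_000389 held the largest share of CDKN1A on day 12, with 52.9% of its TPM in library A and 47.3% in library B, and before that its transcripts rested on few counts. The transcript shares of CDKN1C, CDKN2D, CCNE1 and, before day 8, CDK6 differed widely between the 2 libraries or rested on few counts on at least 1 day.

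The cyclins went separate ways. CCND3, cyclin D3, is the D-type cyclin known to set the number of terminal divisions in erythroid cells, and it was the dominant D-type cyclin here. Its level was 140 and 142 TPM on day 0, ranged from 209 to 537 TPM with a median of 358 over the 6 libraries of days 4 to 6, and was 667 and 606 TPM on day 8. It was 119 and 68.3 TPM on day 12. None of these 4 stages overlapped in TPM, whereas on the TMM scale day 12, at 365 and 273 CPM, lay above day 0, at 117 and 112 CPM, and within the range of days 4 to 6. The peak of both libraries was on day 7, at 770 and 655 TPM.

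CCND3 rose at each step up to day 8. The log2 fold change was 1.59 for days 4 to 6 against day 0 (SE 0.34, adjusted p = 0.0063), 1.25 for day 8 against days 4 to 6 (SE 0.29, adjusted p = 0.0093) and 2.84 for day 8 against day 0 (SE 0.41, adjusted p = 0.00016). It then fell by 1.37 on day 12 against day 8 (log2, SE 0.39, adjusted p = 0.0078), by nearly the same amount in both libraries. The first of these calls was lost without library A or library B of day 0 (1.63 and 1.56, adjusted p = 0.074 and 0.068), and the last without library B of day 12 (-1.18, adjusted p = 0.067) or without the library A samples of days 7 and 8 (-1.17, adjusted p = 0.053). The step from days 4 to 6 to day 8 was 1.03 (adjusted p = 0.186) without library A of day 8.

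CCND2, cyclin D2, is the D-type cyclin tied to growth factor signals in progenitors. Its level was 22.6 and 40.1 TPM on day 0, ranged from 20.5 to 35.9 TPM with a median of 27.2 over the 6 libraries of days 4 to 6, and was 14.5 and 27.2 TPM on day 8. Day 12 had 0.959 and 0.536 TPM, with 280 and 188 counts. Library A lay below library B on each day but day 12, and day 12 alone stood apart from the other stages.

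CCND2 was not called at any step up to day 8, when its log2 fold change against day 0 was -0.01 (SE 0.41, adjusted p = 0.992). It fell from day 8 to day 12 by 3.36 on the log2 scale (SE 0.46, adjusted p = 2.8e-05), by 2.80 in library A and 3.87 in library B. On the GENCODE annotation CCND2 shares 999 exon bases with ENSG00000285901 on the same strand and 162 with the antisense CCND2-AS1, and reads of such pairs may be divided between them.

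CCNE1, cyclin E1, activates CDK2 at the entry into S phase. Its level was 59.0 and 51.1 TPM on day 0, ranged from 126 to 150 TPM with a median of 136 over the 6 libraries of days 4 to 6, and was 48.2 TPM in library A and 135 TPM in library B on day 8. On day 12 it was 1.22 and 0.848 TPM, with 103 and 90 counts. The libraries of days 4 to 6 lay above those of day 0, the day 12 libraries lay below all others, and on day 8 library A stood below every day 0 library and library B within the range of days 4 to 6. On the TMM scale library A of day 8, at 61.1 CPM, lay above both day 0 libraries, at 46.1 and 38.0 CPM.

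The rise of CCNE1 to days 4 to 6 had a log2 fold change of 1.45 (SE 0.27, adjusted p = 0.0028), with 1.31 in library A and 1.60 in library B. From there to day 8 the libraries parted, with -0.91 in library A and 0.29 in library B, and the joint value of -0.19 was not called (adjusted p = 0.639), but was -0.92 (adjusted p = 0.017) without library B of day 8. The call on day 8 against day 0 (1.26, SE 0.31, adjusted p = 0.0063) was lost without library B of day 8 (0.55, adjusted p = 0.110) or of day 0 (1.13, adjusted p = 0.057), with limma on log2(TPM + 1) (0.55, adjusted p = 0.247) and with only the libraries of the days compared (1.28, adjusted p = 0.074). The fall from day 8 to day 12, by 4.95 on the log2 scale (SE 0.37, adjusted p = 1.0e-07), was the largest fall of the 10 genes under the TMM scale.

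The kinases both ended low, and they differed in how far the libraries agreed. CDK4, the main partner of D-type cyclins in many cells, stood at 357 and 362 TPM on day 0, ranged from 245 to 325 TPM with a median of 292 over the 6 libraries of days 4 to 6, and was 149 and 207 TPM on day 8. Both day 12 libraries were lower still, at 31.6 and 32.0 TPM. These 4 stages did not overlap in TPM, and each lay below the one before it. On the TMM scale day 0, at 275 and 265 CPM, overlapped days 4 to 6, which reached 265 CPM, and that step was not called (-0.16, adjusted p = 0.429).

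CDK4 fell by 0.43 from day 0 to day 8 (log2, SE 0.14, adjusted p = 0.032) and by 1.01 from day 8 to day 12 (SE 0.15, adjusted p = 4.9e-05), with -1.12 in library A and -0.91 in library B for the latter. The earlier call was lost without library A of day 0 (-0.41, adjusted p = 0.135), library B of day 0 (-0.46, adjusted p = 0.083) or library A of day 8 (-0.34, adjusted p = 0.210), with no filter beyond 1 count (-0.46, adjusted p = 0.061) and with only the libraries of the days compared (-0.42, adjusted p = 0.118). The opposite strand holds TSPAN31, which shares 1369 exon bases with CDK4. The library kit keeps the strand, and the strand setting used in counting is not given in the sources used here.

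CDK6, the kinase that CDK4 shares its cyclins with, is known to be prominent in blood progenitors. It stood at 2.98 TPM in library A and 22.7 TPM in library B on day 0, ranged from 6.38 to 49.1 TPM with a median of 23.6 over the 6 libraries of days 4 to 6, and was 8.15 and 30.1 TPM on day 8. By day 12 the level was 0.585 and 0.331 TPM. The libraries did not overlap at any stage before day 12: all library A values from day 0 to day 8 lay between 2.98 and 9.85 TPM and all library B values between 22.4 and 49.1 TPM.

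Between days, therefore, CDK6 was judged against a wide spread. Its fall from day 8 to day 12 was just past the threshold (log2 fold change -3.88, SE 1.57, adjusted p = 0.049), with -2.66 in library A and -4.70 in library B, and it was lost without library B of day 8 (-2.88, adjusted p = 0.189), without either day 12 library (-4.14 and -3.70, adjusted p = 0.151 and 0.194) and without either day 7 library (-3.90 for each, adjusted p = 0.056 for each). It was also lost with upper-quartile scaling (-3.68, adjusted p = 0.055) and without the library A samples of days 7 and 8 (-4.49, adjusted p = 0.057). The ITGA2B-led megakaryocytic list also differed between the libraries before day 7, with library A the higher, and its part in the difference of CDK6 was not tested.

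Counted over the set, 2 of the 10 genes rose from day 0 to days 4 to 6 and none fell, where 16.6% of all genes changed, 7.38% up and 9.22% down. Those 2 were CCND3 and CCNE1. The median log2 fold change of the 10 was 0.63, against -0.01 over all genes. CDKN2C, at an adjusted p of 0.053, passed in 4 of 12 other settings, among them DESeq2 (0.016), and in some fits that left out a library. The fit with the library letter as a block called 4 of the 10 genes, adding CDKN1B and CDKN2C. The count was 1 without either day 0 library, where all genes called went from 2785 to 959 (without library A) and 1495 (without library B), which left CCNE1 (adjusted p = 0.00022 to 0.048 over single libraries left out).

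From days 4 to 6 to day 8, 5 of the 10 rose and none fell, where 22.7% of all genes changed, 11.9% up and 10.8% down. They were CDKN1B, CDKN1C, CDKN2C, CDKN2D and CCND3, and the median of the 10 was 0.87 against 0.00 over all genes. Without library A of day 8 the count was 0, with log2 fold changes of 0.69 for CDKN1B, 0.98 for CDKN1C, 0.49 for CDKN2C, 1.39 for CDKN2D and 1.03 for CCND3 against the remaining day 8 library. Without the library A samples of both day 7 and day 8 it was also 0, and all genes called went from 3816 to 553. On log2(TPM + 1) with limma, 2 of the 10 rose and CDK4 fell, and the split of all genes changed from 2001 higher and 1815 lower to 695 higher and 5213 lower. Across the 12 other settings the count reached 7, with at most 6 higher and 1 lower, and CDK4 was called lower in 3 of them.

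From day 8 to day 12, 2 of the 10 rose and 6 fell, where 57.2% of all genes changed, 23.8% up and 33.4% down. CDKN1A and CDKN1B were higher, and CDKN2C, CCND2, CCND3, CCNE1, CDK4 and CDK6 were lower. CDKN1C (-2.36, adjusted p = 0.070) and CDKN2D (1.13, adjusted p = 0.092) did not pass. CDKN1C was called in 4 of 12 other settings (adjusted p down to 0.016) and in 3 of 20 fits that left out 1 library (down to 0.026), and it was -0.50 (adjusted p = 0.655) without the library A samples of days 7 and 8. The median was -1.19, against -0.20 over all genes on the TMM scale. Relative to that median, CDKN2C moved by -0.65, CDK4 by -0.80 and CCND3 by -1.16. On log2(TPM + 1) the median gene moved by -0.68 and the split of all genes was 1407 higher and 8997 lower, against 3997 and 5611, and of the 10 genes CDKN1A remained higher and 7 were lower. Without the library A samples of days 7 and 8, 5 were called.

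Across the whole span from day 0 to day 8, 6 of the 10 rose and 1 fell, where 37.1% of all genes changed, 17.7% up and 19.4% down. Both INK4 inhibitors, CDKN1B, CDKN1C, CCND3 and CCNE1 were higher and CDK4 was lower, with a median of 1.36 against 0.00 over all genes. Without the library A samples of days 7 and 8, 5 rose and none fell, and without library B of day 0 the count was 4 and none fell. On log2(TPM + 1), where the split of all genes was 1223 higher and 6660 lower instead of 2970 and 3254, 4 of the 10 rose and 1 fell. Inhibitors and cyclins were thus among the genes that rose up to day 8, while on day 12 CDKN1A and CDKN1B were higher and all 3 cyclins and both kinases lower on the TMM scale.

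**Figure D2:**
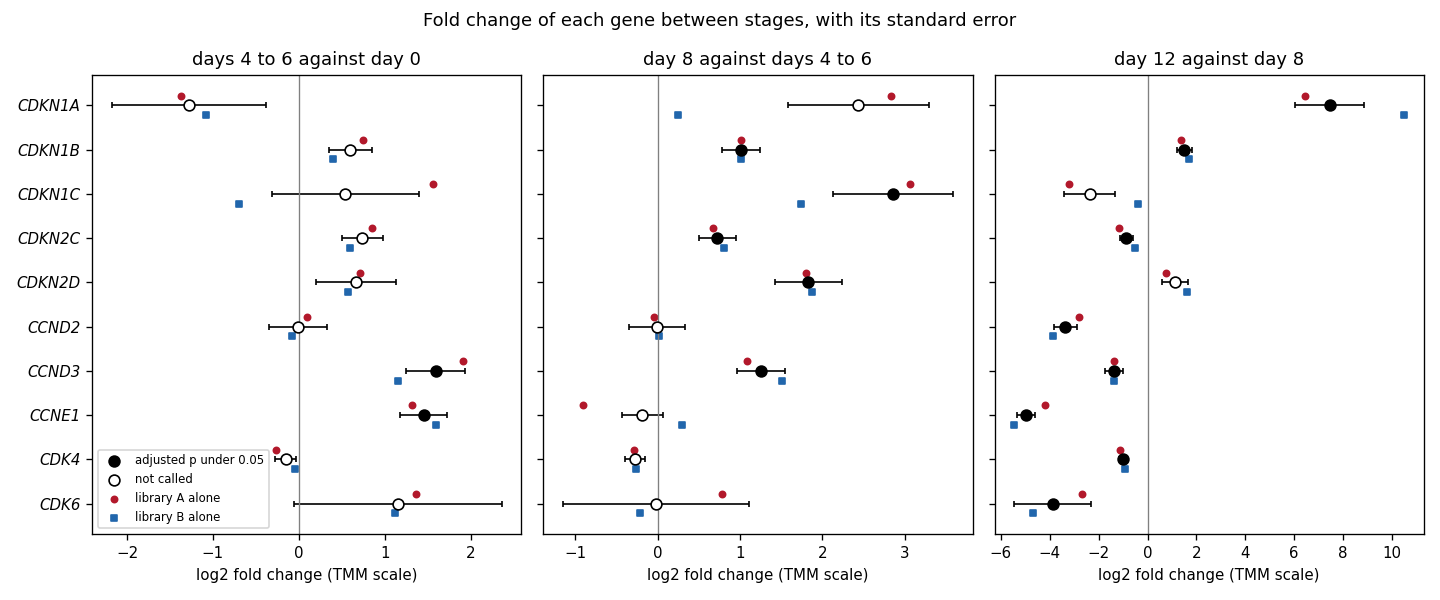
Log2 fold change on the TMM scale with its standard error (bars) for the 10 genes in 3 comparisons, with filled black points for an adjusted p under 0.05, open points for genes not called, red circles for library A alone and blue squares for library B alone. On day 12 against day 8 CDKN1A lies at 7.45 and CDKN1B at 1.51, while CCND2, CCNE1, CDK4 and CDK6 lie between -4.95 and -1.01; on day 8 against days 4 to 6 the separate libraries differ in direction for CCNE1, and for CDK6, at 0.78 in library A and -0.21 in library B.

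The summed levels put the inhibitors beside their kinases. The 5 inhibitors together came to 0.386 and 0.304 TPM per TPM of CDK4 and CDK6 on day 0, in library A and library B. The ratio was 0.853 and 0.442 on day 6, 1.41 and 0.960 on day 7, and 1.80 and 0.948 on day 8. On day 12 it was 20.9 and 18.0. It was higher in library A than in library B on each day, and the day 12 values lay far outside the range of all others. The ratio describes the set and not all inhibitors of these kinases. CDKN2A, outside the set, had 548 and 371 TPM on day 0 and 143 and 99.0 TPM on day 12. CDKN2B, also outside it, had 3.85 and 2.97 TPM and then 68.9 and 52.0 TPM.

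The parts of this ratio came from different genes before and after day 8. On day 8 the INK4 inhibitors of the set, CDKN2C and CDKN2D, summed to 166 and 140 TPM and the CIP/KIP inhibitors to 117 and 84.1 TPM. On day 12 these INK4 inhibitors summed to 68.0 and 58.5 TPM and the CIP/KIP inhibitors to 605 and 522 TPM. Outside the set, CDKN2A had 267 and 218 TPM on day 8 and 143 and 99.0 TPM on day 12. CDKN2B had 43.8 and 13.3 TPM and then 68.9 and 52.0 TPM. The kinases went from 157 and 237 TPM on day 8 to 32.2 and 32.3 TPM on day 12. The D cyclins, at 681 and 633 TPM on day 8, were more abundant than all 5 inhibitors together on that day, and at 120 and 68.8 TPM less abundant than them on day 12. RNA levels are not protein levels, and p27 and p21 are known to be set in large part by protein turnover.

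CDKN1A is read below beside other genes known as targets of p53, a list of 30 genes without CDKN1A. This list and those that follow were chosen with earlier results of these data known, so their shares are a description. Of the 29 tested, 25 rose from day 8 to day 12 (86.2%, against 23.8% of all genes) and 1 fell, with a median log2 fold change of 3.01 against -0.20 over all genes. MDM2, the ligase that degrades p53, stood at 22.4 and 23.1 TPM on day 8 and 109 and 71.5 TPM on day 12 (log2 fold change 3.58, SE 0.24, adjusted p = 4.0e-08). AEN, an exonuclease, went from 38.7 and 43.3 to 214 and 210 TPM (3.83, SE 0.19, adjusted p = 2.5e-09). In both genes the day 12 libraries lay above those of day 8, and for MDM2 the change was nearly equal in the 2 libraries, at 3.59 and 3.57.

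With all libraries, the largest called increases of that list were in PHLDA3, GDF15 and TRIM22. The order changed without the library A samples of days 7 and 8. PLK2 (6.30), TNFRSF10B (6.16), BBC3 (4.89) and GADD45A (4.70) then lay above TRIM22 (4.55). EDA2R (11.5) and TIGAR (8.51) lay above GDF15, but both were at 0 TPM in the remaining day 8 library. GDF15, a secreted stress cytokine that erythroblasts also release, stood at 503 TPM in library A and 79.2 TPM in library B on day 8 and at 5073 and 3951 TPM on day 12 (log2 fold change 5.28, SE 1.19, adjusted p = 0.0018). Its log2 fold change was 7.38 (adjusted p = 0.0012) without the library A samples of days 7 and 8. PHLDA3, a repressor of AKT, rested on 35 and 4 counts on day 8 and 1323 and 1741 on day 12 (7.19, SE 1.06, adjusted p = 5.3e-05, and 9.35 without those samples). TRIM22 rose from 6 and 9 counts to 133 and 113 (4.86, SE 0.91, adjusted p = 0.00041). All 3 were higher in both day 12 libraries than in either day 8 library.

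Other members of that list with large TPM follow. BBC3, a pro-death BCL2 family member, had 98.8 and 33.4 TPM on day 8 and 380 and 299 TPM on day 12 (3.72, SE 0.59, adjusted p = 0.00011, and 4.89 without the library A samples of days 7 and 8), and BAX had 119 and 88.7 and then 301 and 269 TPM (2.85, SE 0.27, adjusted p = 9.0e-07). CD82, a membrane tetraspanin, was the gene that fell, from 46.1 and 126 to 1.58 and 1.36 TPM (-4.37, SE 0.42, adjusted p = 1.2e-06). MDM2, AEN, BBC3, BAX, PLK2, TNFRSF10B, GADD45A, EDA2R and TIGAR were named for this step after their values were seen. Summed over the list, the level was 1413 and 929 TPM on day 8 and 7534 and 5858 TPM on day 12, and without GDF15 it was 910 and 849 TPM and then 2461 and 1907 TPM.

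Before day 12 fewer genes of this list were called. On days 4 to 6 against day 0 there were 5 higher and 2 lower (17.2% and 6.90%, where 7.38% and 9.22% of all genes were). Without library A of day 0, which leaves 1 library on that day, fewer of the list and of all genes were called. On day 8 against days 4 to 6 there were 7 and 2 (24.1% and 6.90%, against 11.9% and 10.8%). Fewer of the list, and fewer of all genes, were called without the library A samples of days 7 and 8, which leaves 1 library on day 8. On day 8 against day 0 there were 9 and 3 (31.0% and 10.3%, against 17.7% and 19.4%), with a median of 0.17, and 7 and 4 without those samples. BTG2, an antiproliferative gene, was among those that rose early, from 14.6 and 16.9 TPM on day 0 to 178 and 147 TPM on day 8 (log2 fold change 3.99, SE 0.29, adjusted p = 1.1e-06). On log2(TPM + 1) the split on day 8 against day 0 was 7 and 9, where that of all genes was 1223 and 6660. On day 12 against day 8 it was 20 and 2, where most called genes were lower.

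The genes that execute S phase and mitosis, 25 in the list, were the counterpart. All 25 fell from day 8 to day 12, where 33.4% of all genes did, with a median log2 fold change of -5.13 against -0.20 over all genes. They did so under each of the 12 other settings tried and with each library left out in turn. MCM3, a subunit of the replicative helicase, went from 133 and 204 TPM on day 8 to 0.699 and 0.373 TPM on day 12 (-6.83, SE 0.21, adjusted p = 7.4e-11). MCM6, of the same helicase, fell by 6.77 (SE 0.26, adjusted p = 2.4e-10) and TOP2A, the topoisomerase of mitotic chromosomes, by 6.40 (SE 0.27, adjusted p = 4.5e-10) on the log2 scale. PCNA, the sliding clamp of DNA polymerases and named after its values were seen, had 481 and 570 TPM on day 8 and 44.1 and 34.0 TPM on day 12 (-2.30, SE 0.20, adjusted p = 4.4e-07).

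No gene of that list fell on day 8 on the TMM scale. Against day 0, 10 of 25 were higher on the TMM scale, where 17.7% of all genes were, and without single libraries the count was between 4 (library A of day 0) and 11. The 10 were led by CDK1, the mitotic kinase (log2 fold change 1.36, SE 0.30, adjusted p = 0.0035). Against days 4 to 6 none was called by edgeR with all libraries or by DESeq2, which did not hold in every fit that left out a library. On log2(TPM + 1) the counts were 1 higher and 5 lower against day 0, and 0 and 6 against days 4 to 6. On that scale 1223 of all genes were higher and 6660 lower against day 0. Most called genes were also lower against days 4 to 6. The counts on day 8 thus depended on the scaling, for this list as for all genes. The summed level was 4276 and 4829 TPM at day 0, then 3739 and 4921 TPM at day 8, and 115 and 85.4 TPM at day 12.

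The rest of the G1 machinery was followed in 42 other genes of the G1/S step, among them the remaining inhibitors, cyclins, RB family members and E2F factors. From day 8 to day 12, 10 rose and 23 fell, with a median of -0.77 (3 and 33 on log2(TPM + 1)). The share that rose, 23.8%, was that of all genes, and the share that fell was 54.8% against 33.4%. From day 0 to day 8, 23 rose and 8 fell (9 and 13 on log2(TPM + 1)), or 54.8% and 19.0% against 17.7% and 19.4% of all genes. On log2(TPM + 1) 1223 of all genes were higher and 6660 lower over that span. The early steps each had 13 higher and 6 lower (31.0% and 14.3%), for days 4 to 6 against day 0, where 7.38% and 9.22% of all genes were, and for day 8 against days 4 to 6, where 11.9% and 10.8% were. At the former step fewer of the list, and fewer of all genes, were called without either day 0 library. The same held for the latter step without the library A samples of days 7 and 8. Each of these fits leaves 1 library in an arm.

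Among the other inhibitors, CDKN2B, which encodes the INK4 inhibitor p15, was higher on day 8 and higher again on day 12. Its level was 3.85 and 2.97 TPM on day 0. By day 8 it was 43.8 and 13.3 TPM, and day 12 had 68.9 and 52.0 TPM, with log2 fold changes of 3.73 for day 8 against day 0 (SE 0.75, adjusted p = 0.0018) and 2.44 for day 12 against day 8 (SE 0.70, adjusted p = 0.0089). These were, without the library A samples of days 7 and 8, 2.44 (adjusted p = 0.015) and 3.74 (adjusted p = 0.0014). For day 8 against days 4 to 6 the value was 2.77 (adjusted p = 0.0024), a call lost without those samples (1.46, adjusted p = 0.145). Its neighbour CDKN2A, source of p16 and ARF, was among the abundant genes of the list. Day 0 had 548 and 371 TPM of it, day 8 had 267 and 218 TPM and day 12 had 143 and 99.0 TPM. Its change on the TMM scale was not called on day 8 against day 0 (-0.27, adjusted p = 0.522) or on day 12 against day 8 (0.43, adjusted p = 0.244). Without the library A samples of days 7 and 8 these log2 fold changes of CDKN2A were -0.55 and 0.72.

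Cyclins outside the set also changed. CCND1, cyclin D1, fell already by day 8, from 47.4 and 35.5 TPM on day 0 to 2.73 and 7.04 TPM (log2 fold change -2.55, SE 0.31, adjusted p = 5.5e-05). CCNE2, cyclin E2, rose over the same span from 21.1 and 27.5 to 75.4 and 86.3 TPM (2.24, SE 0.18, adjusted p = 2.2e-06), and on day 12 it was 1.39 and 0.945 TPM. SKP2, the F-box protein that marks p27 for degradation, fell from 106 and 127 TPM on day 0 to 7.14 and 22.1 TPM on day 8 (-2.31, SE 0.45, adjusted p = 0.0015), with no overlap between the days. Without the library A samples of days 7 and 8 the log2 fold changes were -2.07 for CCND1 (adjusted p = 0.00027), 2.30 for CCNE2 (adjusted p = 4.8e-05) and -1.75 for SKP2 (adjusted p = 0.018).

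Of the RB and E2F genes, some changed by day 8 and some after it. RBL1, which encodes the RB relative p107, had 22.7 and 30.6 TPM on day 8 and 0.132 and 0.0441 TPM on day 12, with 35 and 14 counts (log2 fold change -6.79, SE 0.28, adjusted p = 3.8e-10). CDC25A, a phosphatase that activates CDKs, fell by 6.37 (SE 0.26, adjusted p = 3.9e-10) and MYBL2, a driver of mitotic genes, by 6.13 (SE 0.18, adjusted p = 7.4e-11) on the log2 scale. RB1 itself fell by 0.95 (SE 0.22, adjusted p = 0.0024). E2F2, an E2F factor known in late erythroblasts, had risen by day 8, from 14.5 and 16.6 TPM to 93.0 and 73.2 TPM (3.06, SE 0.26, adjusted p = 3.1e-06), whereas E2F5 fell from 17.2 and 24.3 to 0.512 and 1.19 TPM (-4.03, SE 0.57, adjusted p = 0.00015).

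Those of the list that rose most on day 12 were CDC34, CDKN2B and MXI1. CDC34, the E2 enzyme that works with SKP2 complexes, went from 157 and 119 TPM on day 8 to 322 and 363 TPM on day 12 (2.77, SE 0.31, adjusted p = 4.2e-06). MXI1, an antagonist of MYC, went from 32.8 and 36.1 TPM at the start to 129 and 99.2 TPM by day 8 and to 263 and 189 TPM by day 12 (2.37 for the late step, SE 0.35, adjusted p = 5.5e-05). In both, the day 12 libraries lay above those of day 8. CDKN2A, CCNE2 and RB1 were described in part for steps at which they were not the largest changes, and were named after their values were seen.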

How the data were processed

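Per the submitters' processing notes, the authors used Trimmomatic 0.38 for trimming, HISAT2 2.1.0 for alignment (hg38) and StringTie 2.1.3b for assembly and quantification. The deposited tables give raw counts and TPM for each of 170322 transcripts, and 40 value columns were read. The other 23 were not used (FPKM, and day 0 columns of the day 12 table, where the tables hold 3 sets of day 0 columns for 2 labelled samples and do not say which 2 they are; the sets from the tables spanning the early days were used). Transcripts were summed by gene symbol. Counts were filtered with filterByExpr, scaled by TMM and fitted with edgeR 4.0.16 (R 4.3.3) in a quasi-likelihood model of all 20 libraries with 1 coefficient per day, and p-values were adjusted by Benjamini-Hochberg over 16784 genes. Alternatives used DESeq2 1.42.0, limma 3.58.1 on log2(TPM + 1) and log2(TPM + 0.1), other scalings and filters, the library letter (A or B) as a block, and left-out libraries. The transcript fit, and the fit without library A of days 7 and 8 as applied to single genes outside the 10, were chosen after seeing the data. Scripts were tested on simulated data, where DESeq2 gave a larger share of false calls than edgeR's quasi-likelihood test. Libraries of a day differed beyond counting noise in 65.3% to 78% of genes and were kept as 2 replicates. The members and gene lists were chosen with earlier results of these data known. All 10 members are named, with, from each list and comparison, the 3 largest called increases and decreases that had the same direction in both libraries, the 3 genes most alike, and transcripts of at least 5% of a gene's TPM. RefSeq promoter windows matched 8 of the 10 members, and those of CCND2 and CDKN1C were not used here. Some genes that these rules select are not reported here.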

Additional observations from a re-analysis of the deposited data

How the results depend on the processing

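No paired analysis was possible because the deposited columns carry a day and not the replicate number of the labels. A fit with the library letter (A or B) as a block was run instead. It pairs the libraries of a day by letter and not by replicate number, and treats the separate tables of library A as a single set. With it, the number of the 10 genes called went from 0 to 1 on day 1 against day 0 and from 2 to 4 on days 4 to 6. Other settings that moved a count by over 1.5 times were limma on log2(TPM + 1) or log2(TPM + 0.1) on day 8 against days 4 to 6 (5 to 3 each), leaving out the library A samples of days 7 and 8 (5 to 0 on day 8 against days 4 to 6, and 8 to 5 on day 12 against day 8) and the use of only the libraries of the days compared on day 8 against day 0 (7 to 4). With single libraries left out the counts ranged from 1 to 3 on days 4 to 6, from 0 to 7 on day 8 against days 4 to 6 and from 4 to 7 on day 8 against day 0. Where an arm was left with 1 library, it was assumed to vary like the other days. The cause of these moves was not tested.

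Over 5 comparisons between stages and 12 settings, 527 of the members' results kept direction and call, 29 lost the call, 21 gained it and 23 changed sign, none of the last among called values. For the change over all days, with 11 settings, 106 kept the call, 3 lost it (CDKN1C) and 1 gained it (CDK6). Sign changes, in log2 units, were CDKN1C -0.0084 and CDKN2D -0.0099 with limma on log2(TPM + 1), CDKN2D -0.025 on log2(TPM + 0.1), CDKN1C -0.051 with the block and CDKN2C 0.0041 with upper-quartile scaling, all on day 1. For CCND2 on days 4 to 6 they were 0.0036 with upper-quartile scaling, 0.0035 with only the days compared, 0.0093 with the block and 0.015 without library A of days 7 and 8. On day 8 against days 4 to 6, leaving out library A of days 7 and 8 gave CDKN1A -0.58, CCND2 0.28, CCNE1 0.30 and CDK6 0.57, upper-quartile scaling gave CCND2 0.017 and CDK6 0.00046, the days compared alone gave CCND2 0.0014 and the block gave CDK6 0.30. On day 12 against day 8, CDKN2D was -0.22 and -0.23 with limma on TPM. On day 8 against day 0, CDKN1A was -0.17 on log2(TPM + 0.1) and -1.83 without library A of days 7 and 8, and CCND2 was 0.021 with upper-quartile scaling and 0.29 without those libraries.

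With single libraries left out, 35 results changed sign, none of them called with all libraries, and CCNE1 on day 8 against days 4 to 6 was then called at -0.92 (adjusted p = 0.017). Their ranges on day 1 were -0.60 to 1.81 for CDKN1A, -0.36 to 0.23 for CDKN1B, -0.32 to 0.73 for CDKN1C, -0.24 to 0.18 for CDKN2C, -0.49 to 0.79 for CDKN2D, -0.018 to 0.78 for CCND2, -0.0050 to 0.28 for CCNE1 and -1.88 to 2.09 for CDK6. On days 4 to 6 CCND2 ranged from -0.33 to 0.42. On day 8 against days 4 to 6 the ranges were -0.59 to 3.34 for CDKN1A, -0.37 to 0.27 for CCND2, -0.92 to 0.29 for CCNE1 and -1.05 to 0.60 for CDK6, and on day 8 against day 0 they were -1.86 to 2.16 for CDKN1A and -0.35 to 0.41 for CCND2. Over all genes, calls on day 1 went from 66 to 425 with DESeq2, 285 with the likelihood ratio test, 299 and 157 with limma on TPM, 0 with only the days compared and 442 with the block. Calls on days 4 to 6 went from 2785 to 4809 with the block. On day 8 against days 4 to 6, 3816 became 5908 and 5872 with limma, 2418 with the days compared, 6104 with the block and 553 without library A of days 7 and 8, and on day 8 against day 0, 6224 became 3725 with the days compared and 3721 without those libraries. Depth limits CDKN1C, with 14 to 326 counts per library, and CDKN1A before day 12, with as few as 26.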

Other observations

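Among the 9668 genes (9669 for CDKN1C) with a mean of at least 5 CPM, those whose course over the 10 days was most like that of each member, by the lower of the Pearson correlations in the 2 libraries on the log2 CPM scale, are given as a description. For CDKN1A they were SERTAD1 (r = 0.991 and 0.989), ZFP36 and NEU1. For CDKN1B they were CPEB4, a translational regulator (r = 0.993 and 0.993) and ARG1, and for CDKN2D they were MTURN (r = 0.986 and 0.989), AGER and CBX7. CDKN2C was most like DHRS13 (r = 0.986 and 0.989), CABLES2 and MXD3, and CDKN1C most like PAXIP1-AS1 (r = 0.943 and 0.828), DLEU2 and PTGS1. The cyclins were most like CRACDL, RFC2 and APOBEC3B for CCND2, RGS10, TRIOBP and ST3GAL3 for CCND3, and A4GALT, ACAT1 and ZNF649 for CCNE1. CDK4 was most like ATP5F1A, a subunit of mitochondrial ATP synthase (r = 0.992 and 0.991), PATZ1 and SOX12, and CDK6 most like ZNF441 (r = 0.966 and 0.956), ZNF273 and EFCAB13. All points share the days and the library depth, and on the log2(TPM + 1) scale only DHRS13 for CDKN2C and ATP5F1A for CDK4 were again among the 3 genes most alike.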
